A study of Mus musculus with 12 samples.

Results

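The let-7 microRNAs and their close relative miR-98 were measured in epididymal fat of mice exposed to a high fat diet at different stages of life. The set held the 9 guide strands (the 5p arms, which are the strands loaded into the silencing complex) of let-7a, let-7b, let-7c, let-7d, let-7e, let-7f, let-7g, let-7i and miR-98. They were chosen by name and not by a rule on measured values, but with earlier results of these data known. They made up 9 of the 504 microRNAs on the panel. All 9 were measured in all 12 samples.

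The animals were male C57BL/6J wild-type mice, and all groups shared the epididymal fat pad as the tissue. The control group (CD) received a purified diet with 10% of its energy as fat, and the high fat diet had 45%. The UT group was exposed to the high fat diet only in utero through the dam, the UL group from mating to weaning, and the WL group from mating until the end of the experiment at 23 weeks. Each group was profiled by quantitative RT-PCR as 3 pools made from 12 mice, so the spread between animals was averaged within a pool before measurement. The sources used here do not say which mice or litters went into which pool, so the p-values measure the spread between pools.

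let-7 is one of the first microRNAs to have been discovered, and it is deeply conserved among animals. Its members rise as cells differentiate, and they repress growth and metabolic regulators such as Lin28, Hmga2, Igf1r, Insr and Irs2 through matches to a shared seed, the stretch near the 5′ end that pairs with target messages. In mice, raised let-7 impairs glucose handling, and the Lin28 proteins oppose let-7 by blocking the maturation of its precursors. In fat, let-7 is known as a brake on the expansion of fat cell precursors.

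The mature sequences show what the members have in common and where they part. They are given 5′ to 3′ as RefSeq lists them for GRCm38.p6, with the seed (bases 2 to 8) in capitals:

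mmu-let-7a-5p: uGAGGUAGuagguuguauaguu

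mmu-let-7b-5p: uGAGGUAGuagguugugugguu

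mmu-let-7c-5p: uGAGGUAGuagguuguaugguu

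mmu-let-7d-5p: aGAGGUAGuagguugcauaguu

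mmu-let-7e-5p: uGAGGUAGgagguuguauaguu

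mmu-let-7f-5p: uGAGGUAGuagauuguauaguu

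mmu-let-7g-5p: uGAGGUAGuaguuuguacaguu

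mmu-let-7i-5p: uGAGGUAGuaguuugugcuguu

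mmu-miR-98-5p: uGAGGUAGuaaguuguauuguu

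All 9 are 22 bases long and share 1 seed, GAGGUAG. Of the 1679 mature names in the RefSeq table, 11 (0.655%) carry that seed at bases 2 to 8. Those measured on the panel were these 9 and no other among the 393 measured microRNAs whose names matched a mature sequence. Against let-7a-5p, and counting from 1 at the 5′ end, let-7c-5p differs by A19G, let-7e-5p by U9G and let-7f-5p by G12A. A pair of substitutions sets apart let-7b-5p (A17G, A19G), let-7d-5p (U1A, U16C), let-7g-5p (G12U, U18C) and miR-98-5p (G11A, A19U), whereas let-7i-5p carries 4 (G12U, A17G, U18C, A19U). The assays therefore target near-identical RNAs. How far each assay reads its neighbours was not tested, and levels of members that differ by a single base are uncertain in that respect.

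The members come from 12 hairpins spread over 7 chromosomes, many of them beside other microRNAs (GRCm38.p6). let-7a-1 (chr13:48538179-48538272), let-7f-1 (chr13:48537829-48537917) and let-7d (chr13:48536012-48536114) lie together on the minus strand, 261 and 1714 bases apart, with no annotated gene spanning them. let-7c-2 (chr15:85706603-85706697) and let-7b (chr15:85707319-85707403) lie 621 bases apart within the long noncoding RNA gene Lncppara. let-7c-1 (chr16:77599657-77599750) follows Mir99a at a distance of 656 bases, and let-7e (chr17:17830352-17830444), within Spaca6, precedes Mir125a by 367 bases. let-7a-2 (chr9:41536716-41536811) lies in Mir100hg between Mir100 and Mir125b-1. let-7g (chr9:106178840-106178927) lies within Wdr82, and let-7i (chr10:122985640-122985724) within no annotated gene. let-7f-2 (chrX:151912346-151912428) and miR-98 (chrX:151913214-151913321) lie 785 bases apart on the plus strand within Huwe1, a ubiquitin ligase gene. The table used here gives gene spans, so exon and intron were not told apart. let-7a, let-7c and let-7f each arise from a pair of hairpins, and their guide strands cannot be assigned to either.

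The level of each microRNA was expressed as its relative level, which is the pool's mean threshold cycle (Ct) over the 466 microRNAs measured in all 12 pools minus its own Ct. A higher relative level means earlier detection, on a log2 scale in which 1 cycle is a 2-fold step if the PCR doubles at each cycle. Each pool gave values for 492 to 506 of the assays, and its median Ct lay between 24.6 and 25.3. The SD around the group mean over all microRNAs was widest in WL 3 at 0.975 cycles, followed by UT 2 at 0.852, WL 2 at 0.796 and UT 3 at 0.784, and it was narrowest in UL 3 at 0.391. Pools of WL and UT thus scattered more than those of CD and UL, and UT 2 was only slightly wider than the next pools. Differences were tested with limma over all 504 microRNAs with Benjamini-Hochberg adjustment and a threshold of 0.05. Among the markers of fat chosen for this tissue, 9 of 10 were measured, and their summed level lay between 8.61 and 8.78 in the control pools.

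Of the 9 members, 8 were among the earliest detected microRNAs of the fat pad. The mean relative level over the 12 pools was highest for let-7b-5p at 8.48, rank 3 among the 466 microRNAs measured throughout, followed by let-7c-5p at 8.34 and let-7a-5p at 7.64. let-7e-5p (7.21), let-7f-5p (6.79), let-7d-5p (6.19), let-7g-5p (5.60) and let-7i-5p (5.19) came next, the last of them at rank 47. miR-98-5p lay far lower, at -0.84 and rank 269, which is 6.03 cycles below let-7i-5p. Assays differ in efficiency, so this is the order of detection and not of amounts.

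Some neighbours in that order were separated more firmly than others. let-7b-5p came before let-7c-5p in 10 of 12 pools by a mean of 0.15 cycles, within the SD of that gap of 0.33 cycles. The same held for let-7e-5p over let-7f-5p (0.42 cycles, SD 0.53, 9 of 12 pools) and for let-7a-5p over let-7e-5p (0.43 cycles, SD 0.45, 11 of 12 pools). let-7c-5p exceeded let-7a-5p in all 12 pools by 0.70 cycles (SD 0.30), and let-7g-5p exceeded let-7i-5p in all 12 by 0.41 (SD 0.17). let-7f-5p over let-7d-5p (0.60, SD 0.52) and let-7d-5p over let-7g-5p (0.59, SD 0.56) each held in 10 of 12 pools, with gaps close to their SD. miR-98-5p was last in every pool.

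**Figure D1:**
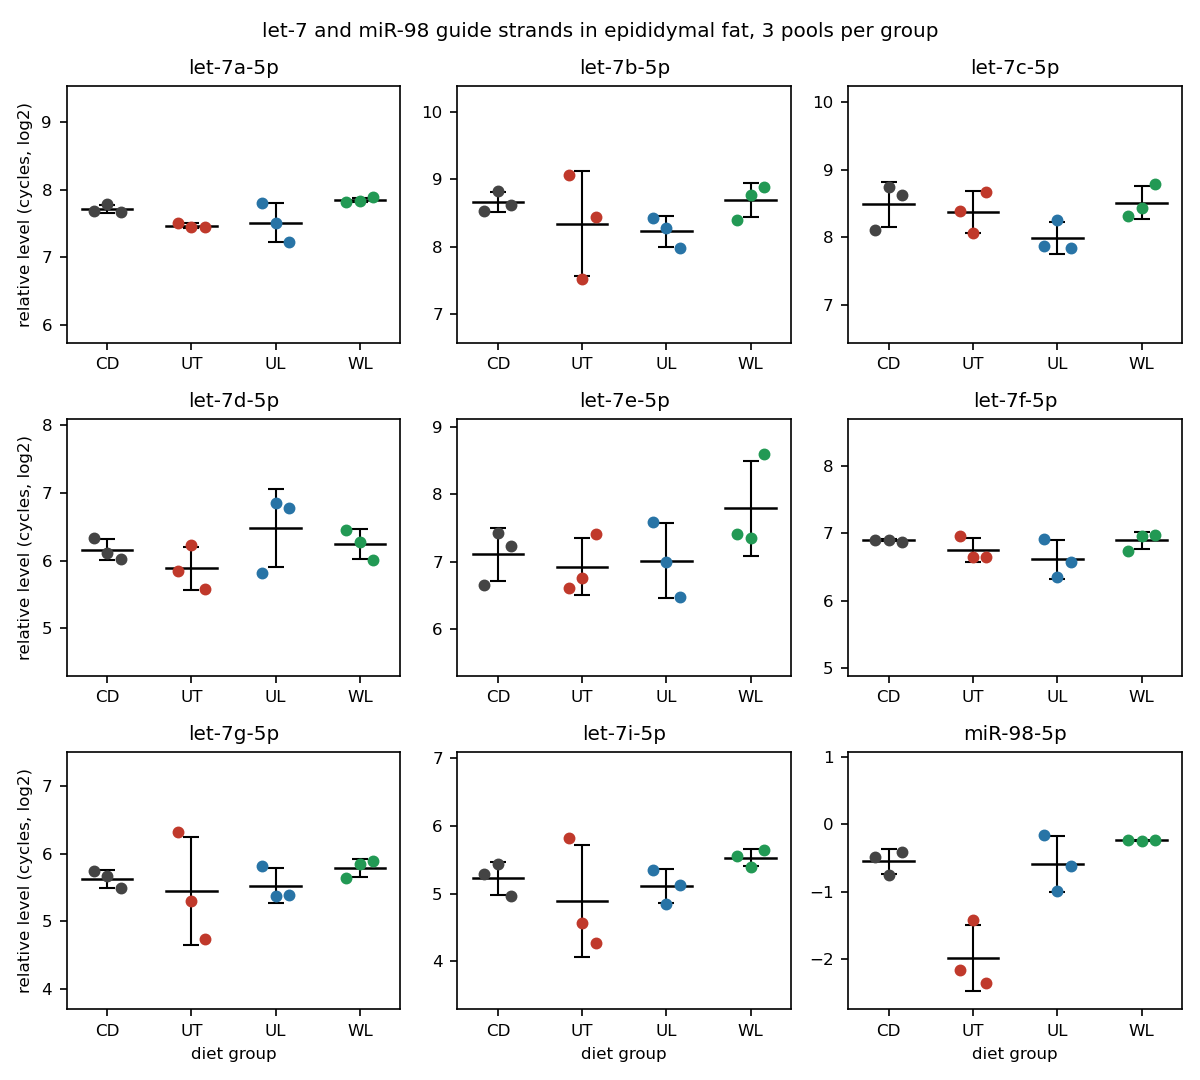
Relative level (cycles, log2) of each guide strand by diet group, with 1 point per pool, a bar at the group mean and whiskers of 1 SD (n = 3). Every panel spans the same number of cycles but has its own centre, and the 3 UT pools of miR-98-5p, from -2.35 to -1.43, lie below the other 9 pools.

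Replicate pools scattered less for 8 of the 9 members than for the median microRNA of the panel. The SD within groups had a median of 0.357 cycles over the 9 members, against 0.524 over all 466 microRNAs measured throughout and 0.444 over the 54 earliest detected. It was 0.147 cycles for let-7a-5p and 0.182 for let-7f-5p, at the 0.429 and 0.858 percentiles of all 466, so these were among the steadiest assays of the panel. It reached 0.534 cycles in let-7e-5p, the member with the widest scatter.

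miR-98-5p was the only member to reach an unadjusted p under 0.05 in any comparison of the diet groups. Its relative level was -0.48, -0.76 and -0.41 in the CD pools and -2.16, -1.43 and -2.35 in the UT pools. It was -0.16, -0.99 and -0.62 in UL and -0.23, -0.25 and -0.23 in WL. All 3 UT pools lay below all 9 others. Over the panel, pools did not overlap in 14% of microRNAs for UT against CD, 13.3% for UL against UT and 19.3% for WL against UT. The share below all 9 other pools was not computed. The UL pools spanned the range of the CD pools, and the WL pools lay above CD and within the range of UL. In threshold cycles, the UT pools crossed at 26.0 to 27.4 and the other 9 at 25.1 to 26.0.

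The in utero group lay below the control group by 1.43 cycles in miR-98-5p (SE 0.33, 95% interval -2.14 to -0.71, n = 3 against 3 pools). This did not pass the threshold (limma, adjusted p = 0.0570), and miR-98-5p had rank 9 of 504 by p. Across the panel limma called 7 microRNAs in this comparison, or 1.39% of 504, and 0 of the 9 members. At an unadjusted p under 0.05 the panel had 51 (10.1%), with miR-98-5p the only member among them. In whole tissue, fewer cells of a type and less RNA per cell cannot be told apart.

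miR-98-5p lay close to the threshold, and 5 of 29 alternative settings carried it past. Without UT 2, the in utero pool nearest to the controls, the difference was -1.70 cycles (limma, adjusted p = 0.0398). Leaving out the nearest pool widens the gap by construction. It did not pass without UT 1 (-1.34 cycles, limma, adjusted p = 0.182) or without UT 3 (-1.24 cycles, adjusted p = 0.216). With all pools kept, it passed with array quality weights (adjusted p = 0.0358), with the deposited ratios (adjusted p = 0.0322) and with scaling to the median microRNA (adjusted p = 0.0415). Over the 29 alternatives the difference lay between -1.70 and -0.69, always below 0, with adjusted p from 0.0209 to 0.304. The smallest size came from scaling to RNU-43, a small nucleolar RNA used as a reference, which itself lay at 6.96, 6.89 and 6.37 in UT against 7.73, 7.13 and 7.59 in CD.

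**Figure D2:**
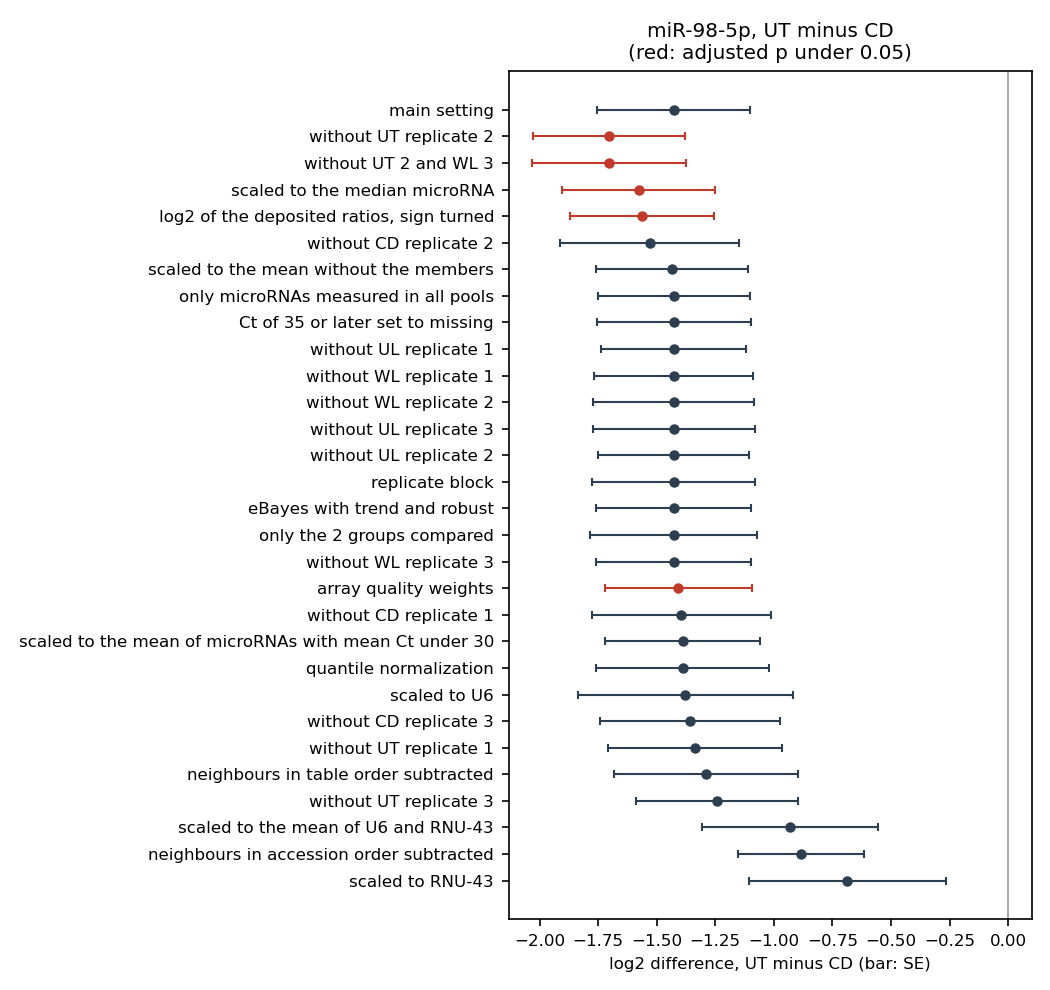
Difference of miR-98-5p between the UT and CD groups (log2, x axis) under the main setting and each of 29 alternatives (y axis), with bars of 1 SE and red marking an adjusted p under 0.05. All values lie below 0, from -1.70 without UT 2 to -0.69 with scaling to RNU-43, and 5 of the 29 alternatives pass.

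In the groups that kept the high fat diet after birth, the level of miR-98-5p lay nearer to that of the controls than to that of UT. UL exceeded UT by 1.39 cycles (SE 0.33, 95% interval 0.68 to 2.11, limma, adjusted p = 0.124), and WL exceeded UT by 1.74 cycles (SE 0.33, 95% interval 1.03 to 2.46, adjusted p = 0.107). The latter had the smallest unadjusted p of all 504 microRNAs, 0.000212 from limma. That rank held under most alternatives, but it was 4 with only the 2 groups compared, 10 without WL 3 and 102 with scaling to RNU-43. limma called 0 of 504 microRNAs (0%) in both of these comparisons, with 40 (7.94%) at an unadjusted p under 0.05 for UL against UT and 79 (15.7%) for WL against UT, each including miR-98-5p as the only member. These comparisons share the UT pools with the one against the controls, so the 3 values are not independent. Without WL 3, or without UT 2, miR-98-5p passed in WL against UT. Leaving out any other single pool did not carry it past, with adjusted p up to 0.351 from limma (without UT 3). With WL 3 and UT 2 both left out, a choice made after seeing the data, it passed in UL against UT as well (1.67 cycles, limma, adjusted p = 0.0266). No single pool left out did so there, with adjusted p from 0.0682 (without UT 2) to 0.467 (without UT 1).

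Against the control pools, UL and WL gave small differences in miR-98-5p. UL minus CD was -0.04 cycles (SE 0.33, 95% interval -0.75 to 0.68, limma, adjusted p = 0.995). WL minus CD was 0.31 cycles (SE 0.33, 95% interval -0.40 to 1.03, adjusted p = 0.956), with all 3 WL pools above all 3 CD pools. The intervals leave room for differences of up to 0.75 cycles downward in UL and 1.03 cycles upward in WL. Over the 4 groups together, the F test of limma gave an adjusted p of 0.0813 for miR-98-5p. It called 2 microRNAs (0.397% of 504), none of them a member, with 50 (9.92%) at an unadjusted p under 0.05.

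**Figure D3:**
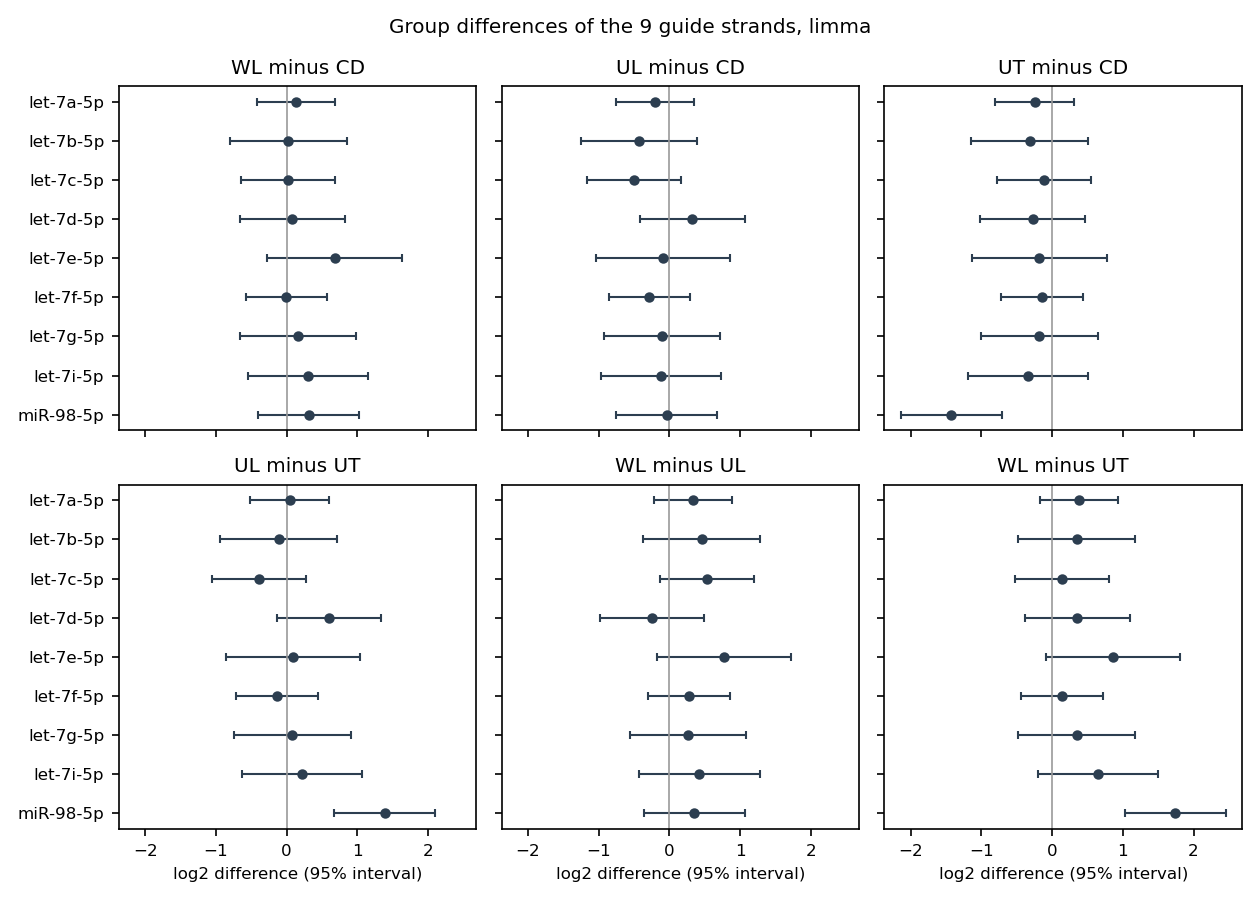
Log2 difference between diet groups (x axis, cycles, with 95% intervals from limma) for each of the 9 guide strands (y axis), in 6 panels for the 6 group pairs. In the 3 comparisons with UT, miR-98-5p is the only member whose interval leaves out 0, at -1.43, 1.39 and 1.74 cycles.

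Setting miR-98-5p against other members of the same pool removes any scaling between pools. Its relative level minus that of let-7a-5p was -8.17, -8.54 and -8.09 cycles in CD, -9.67, -8.88 and -9.80 in UT, -7.96, -8.50 and -7.85 in UL and -8.06, -8.08 and -8.12 in WL. Each UT pool lay lower than any of the other 9. Against let-7f-5p, which shares the X-linked Huwe1 locus through let-7f-2, the difference was -7.39, -7.66 and -7.29 cycles in CD and -9.12, -8.07 and -9.00 in UT. It was -7.08, -7.34 and -7.19 in UL and -6.98, -7.21 and -7.21 in WL. Here too the UT pools lay below the others without overlap. Against the mean of the other 8 members, UT 2 at -7.99 cycles lay only just below CD 2 at -7.87, while UT 1 and UT 3 were at -9.23 and -9.00. The 9 members are single assays of near-identical RNAs, and how far each reads its neighbours was not tested. These differences describe gaps in detection within a pool and were given no test of their own.

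**Figure D4:**
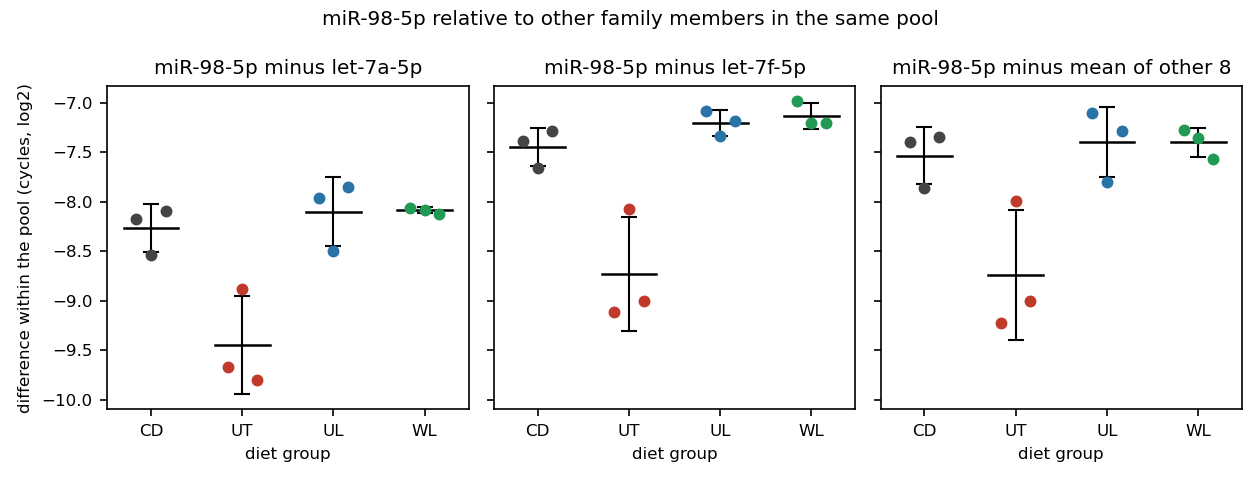
Relative level of miR-98-5p minus that of let-7a-5p, of let-7f-5p and of the mean of the other 8 members in the same pool (cycles, log2; 1 point per pool, bar at the mean, whiskers of 1 SD, n = 3). The UT pools lie lowest in all 3 panels, and UT 2 is the closest of them to the control pools.

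The guide strands let-7a-5p and let-7f-5p, each encoded on chromosome 13 and by another hairpin elsewhere, varied little between groups. let-7a-5p, the reference member of the family, read 7.69, 7.78 and 7.68 in CD, 7.51, 7.45 and 7.45 in UT, 7.80, 7.51 and 7.23 in UL and 7.83, 7.83 and 7.89 in WL. Its 3 UT pools lay below and its 3 WL pools above all CD pools, but by only -0.25 cycles (SE 0.25, limma, adjusted p = 0.810) and 0.13 cycles (SE 0.25, adjusted p = 0.978). The SD of let-7a-5p between pools was 0.059 cycles in CD, 0.032 in UT and 0.035 in WL, but 0.285 in UL. The share of microRNAs whose pools do not overlap was 14% for UT against CD and 11% for WL against CD, with let-7a-5p and miR-98-5p the 2 members in each. let-7f-5p held between 6.35 and 6.98 in all 12 pools, with a WL mean equal to the CD mean at 6.90, and its UT pools read 6.96, 6.64 and 6.65.

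let-7d-5p had its highest group mean in UL and its lowest in UT. It read 6.33, 6.11 and 6.03 in CD, 5.85, 6.22 and 5.58 in UT, 5.82, 6.85 and 6.78 in UL and 6.45, 6.27 and 6.00 in WL. UL 2 and UL 3 were its highest pools, while UL 1 was among its lowest. UL exceeded UT by 0.60 cycles (SE 0.34, 95% interval -0.14 to 1.34, limma, adjusted p = 0.686), the lowest adjusted p in that comparison among the members other than miR-98-5p. It was the only member with a mean above the controls in UL, by 0.33 cycles (SE 0.34).

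let-7b-5p and let-7c-5p, the earliest detected members, had their lowest group means in UL. let-7b-5p read 8.53, 8.82 and 8.63 in CD and 8.43, 8.28 and 7.98 in UL. It was scattered in UT, at 9.07, 7.52 and 8.44, and read 8.41, 8.77 and 8.89 in WL. All 3 UL pools lay below all CD pools, by a mean of 0.43 cycles (SE 0.38, limma, adjusted p = 0.995), and it was the only member whose pools did not overlap in that comparison (7.88% of the panel). let-7c-5p read 8.11, 8.73 and 8.62 in CD, 8.38, 8.05 and 8.67 in UT, 7.86, 8.25 and 7.83 in UL and 8.32, 8.43 and 8.78 in WL. UL lay below CD by 0.50 cycles (SE 0.30, adjusted p = 0.995) and WL above UL by 0.53 (SE 0.30, adjusted p = 0.805), neither past the threshold.

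let-7e-5p, encoded beside miR-125a, had the largest mean difference between WL and CD. Its relative level was 6.66, 7.42 and 7.24 in CD, 6.62, 6.75 and 7.41 in UT, 7.58, 7.00 and 6.47 in UL and 7.42, 7.35 and 8.60 in WL. The WL mean exceeded the CD mean by 0.68 cycles (SE 0.43, 95% interval -0.27 to 1.63, limma, adjusted p = 0.812). WL 3 was its highest pool of all 12, and without it the difference was 0.28 cycles.

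let-7g-5p and let-7i-5p, each encoded alone, scattered together in the UT pools. let-7g-5p read 5.74, 5.66 and 5.49 in CD, 6.32, 5.29 and 4.73 in UT, 5.82, 5.37 and 5.39 in UL and 5.65, 5.84 and 5.89 in WL. let-7i-5p read 5.29, 5.43 and 4.96 in CD, 5.83, 4.56 and 4.27 in UT, 5.35, 4.85 and 5.12 in UL and 5.56, 5.39 and 5.65 in WL. In both, UT 1 was the highest pool of all 12 and UT 2 and UT 3 the lowest, and the UT mean averages over both. Their differences from CD in UT were -0.18 cycles (SE 0.38, limma, adjusted p = 0.935) and -0.34 (SE 0.39, adjusted p = 0.812).

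The set as a whole showed no shift against CD that held under every alternative, and no member passed the threshold. In UT minus CD all 9 differences were below 0, with a median of -0.25 cycles against -0.01 over all 504 microRNAs, of which 258 were below 0. Scaling to RNU-43 moved the median of all microRNAs to 0.73, and then 1 of the 9 members was below 0 (median 0.50). With the mean of U6 and RNU-43, 4 of 9 were below 0 (median 0.14). With U6 alone, all 9 stayed below 0 (median -0.31). U6 gave no value in UT 1 or WL 3, so both settings with U6 leave out these pools as well as changing the scaling. With neighbours in accession order subtracted, 4 of 9 were below 0 (median 0.07). Without UT 2, 7 of 9 were below 0 with a median of -0.11.

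The groups exposed after birth gave similarly small values against CD. In WL minus CD, 8 of 9 were above 0 with a median of 0.13 against -0.06 over all, but with neighbours in accession order subtracted 6 of 9 were below 0 (median -0.04). limma called 3 of 504 (0.595%) there and 0 members, with 36 (7.14%) and 0 members at an unadjusted p under 0.05. In UL minus CD, 8 of 9 were below 0 with a median of -0.12 against -0.07. Scaling to RNU-43 left 2 of 9 below 0 (median 0.25), while scaling to U6 left 8 of 9 (median -0.11). Without UL 1 the median was -0.35, without UL 2 it was -0.08 and without UL 3 it was -0.06, while without CD 1 or CD 3 it was -0.22. limma again called 3 of 504 (0.595%) and 0 members, with 14 (2.78%) and 0 members unadjusted. These 3 comparisons share the CD pools.

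Between the exposed groups, the values of the set also moved with the scaling. In WL minus UT all 9 differences were above 0, with a median of 0.35 cycles against -0.09 over all microRNAs. Scaling to RNU-43 put 7 of 9 below 0 (median -0.37), while scaling to U6 put 0 of 9 below 0 (median 0.75). Subtracting neighbours in accession order put 5 of 9 below 0 (median -0.05), and leaving out UT 1 gave a median of 0.71. let-7a-5p and miR-98-5p had pools that did not overlap, as had 19.3% of the panel.

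In WL minus UL, 8 of 9 were above 0 with a median of 0.35 against -0.05. With scaling to RNU-43, 4 of 9 were below 0 (median 0.0033), and with scaling to U6, 0 of 9 (median 0.59). let-7a-5p, let-7c-5p and let-7i-5p did not overlap there, against 9.88% of the panel, but limma called 0 of 504 (0%), with 27 (5.36%) and 0 members at an unadjusted p under 0.05. In UL minus UT, 6 of 9 were above 0 with a median of 0.08 against -0.03. Leaving out 1 pool moved that median between -0.10 (without UL 1) and 0.25 (without UT 1). Scaling to RNU-43 put 7 of 9 below 0 (median -0.30), and scaling to U6 put 2 of 9 below 0 (median 0.30). miR-98-5p alone did not overlap in UL minus UT, as did 13.3% of the panel.

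The passenger strands (3p arms), which are made from the same hairpins and mostly degraded, were measured for 7 of 12 entries. The guide was detected before its passenger in every pool where both were measured. The mean lead was 3.24 cycles for let-7d, 4.92 for let-7g and 5.63 for let-7i, and it was 8.47 for miR-98, 8.97 for let-7e, 9.79 for let-7a-2 and 11.9 for let-7f-2. The guides let-7a-5p and let-7f-5p can also come from another hairpin, so their leads are not gaps between the arms of a single hairpin. Assays differ in efficiency, so all of these leads give the order of detection and not of amounts. The passengers of let-7a-2, let-7e and let-7f-2 gave no value in WL 3. None of the 7 passed the threshold in UT, UL or WL against CD, and their median differences were 0.00, 0.10 and -0.55 cycles.

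The passenger of miR-98, read at late cycles, gave no firm second reading of the hairpin. Its relative level was -8.49, -9.51 and -8.94 in CD, -11.1, -9.64 and -9.50 in UT, -8.24, -10.5 and -7.99 in UL and -9.29, -9.14 and -9.24 in WL. UT 1 was the lowest pool, but UT 2 and UT 3 were close to CD 2. UT minus CD was -1.11 cycles (SE 0.64, limma, adjusted p = 0.612), below 0 as in the guide strand and not past the threshold. The passenger of let-7f-2, 785 bases away, was at -0.66 cycles in the same comparison, while that of let-7e was at 1.04.

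The microRNAs encoded beside let-7 genes, miR-99a, miR-99b, miR-100, miR-125a and miR-125b, were all measured. Their guide strands had a median difference of -0.31 cycles in UT minus CD, -0.14 in UL minus CD and 0.18 in WL minus CD, and 0 of 5 passed the threshold in each. miR-125a-5p, the neighbour of let-7e, read 5.64, 6.14 and 5.74 in CD and 5.24, 5.03 and 5.06 in UT, without overlap (-0.73 cycles, limma, adjusted p = 0.435). miR-125b-5p lay lower by a similar size (-0.70), while miR-99b-5p was the 1 of 5 above 0, at 0.77, with UT 3 at 6.09 and the other UT pools at 3.93 and 3.91. The passenger strands of these neighbours, measured for 4 of 6, had a median of -0.01 in UT minus CD. miR-202-3p, a relative that shares part of the seed, lay at 0.47 cycles in UT minus CD.

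Profiles over the pools were compared between members, beside the number of bases by which they differ. Likeness was measured as the root-mean-square difference between profiles after each assay's own mean was removed. Over the 36 pairs the median was 0.504 cycles, with 0.440 over the 28 pairs of let-7 members and 0.700 over the 8 pairs with miR-98-5p. The closest pair was let-7a-5p and let-7f-5p (0.156 cycles, 1 base apart), followed by let-7g-5p and let-7i-5p (0.165, 2 bases). The farthest was let-7c-5p and miR-98-5p (0.834), also only 2 bases apart. By number of differing bases, the median was 0.306 cycles over 4 pairs with 1, 0.390 over 10 pairs with 2, 0.573 over 11 pairs with 3 and 0.533 over 9 pairs with 4. The pairs share members and pools, so these values are a description.

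**Figure D5:**
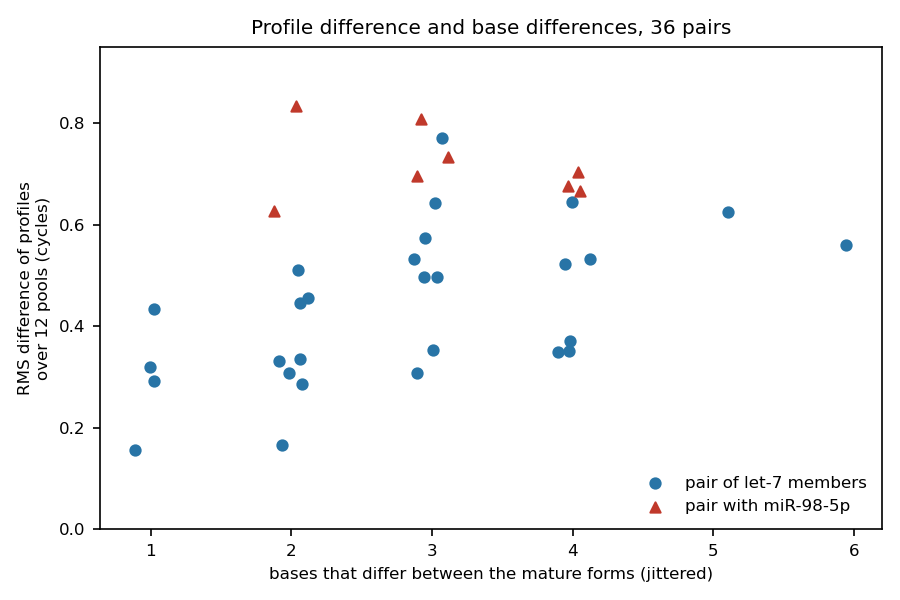
Root-mean-square difference between the profiles of 2 members over 12 pools (y axis, cycles) against the number of bases by which their mature forms differ (x axis, points shifted slightly sideways), for 36 pairs. Triangles mark the 8 pairs with miR-98-5p, which lie high for their number of base differences, and the lowest point is let-7a-5p with let-7f-5p at 0.156.

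Around their common mean, let-7a-5p lay closest (0.124 cycles) and miR-98-5p farthest (0.582). Of the 457 other microRNAs measured in all pools, those nearest to the members' mean profile were miR-203-3p (0.211 cycles), miR-301b-5p (0.229), miR-488-5p (0.238), miR-125a-5p (0.242) and miR-218-5p (0.252), against a median of 0.588. For miR-98-5p alone, a comparison chosen after its values were seen, the nearest were miR-143-3p (0.366), miR-101a-3p (0.441), miR-324-5p (0.443), miR-30c-5p (0.451) and miR-103-3p (0.455), against a median of 0.942. They were picked for their likeness to miR-98-5p, so their own low values in UT follow from the choice. These 12-pool likenesses share the scaling and the libraries and carry no test.

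The marker lists were also compared between UT and CD. Of the 9 fat markers measured, 8 were below 0 with a median of -0.35, and their summed level was 8.47 to 8.49 in UT against 8.61 to 8.78 in CD. The 6 stromal markers were all below 0 (median -0.69). The summed level of the 5 measured in all pools was 7.41 to 8.01 in UT against 7.88 to 8.67 in CD.

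Markers of other tissues differed from the controls in UT as well. The 6 epithelial markers, of the miR-200 family and miR-205, were all below 0 in UT minus CD (median -2.37), with a summed level of 2.89 to 5.21 in UT against 4.37 to 7.19 in CD. Of the 10 testis and epididymis markers, 9 were above 0 (median 1.05), while their summed level, 4.10 to 5.70 in UT against 4.82 to 5.88 in CD, was not higher. Of the 6 leukocyte markers, 4 were below 0 (median -0.74; 4.67 to 5.84 in UT against 5.49 to 6.43 in CD). The medians of the erythroid, muscle, liver, endothelial and neural markers were 0.18, -0.15, -0.42, 0.09 and 0.14. None of the microRNAs in these lists passed the threshold in UT minus CD. The part of these shifts in the level of miR-98-5p was not tested.

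The authors' deposited table of fold changes gives ratios that grow with later cycles, so a value above 1 stands for later detection. In the authors' deposited table miR-98-5p had 3.01 in UT, the same as recomputed from the UT pools. In UL the authors' deposited table had 2.17 against 1.09 recomputed from the UL pools, and in WL 1.91 against 0.852. Over all assays the UL column of the authors' deposited table matched a mean of UT 2, UT 3 and UL 1, and its WL column a mean of UT 3, UL 1 and UL 2. For miR-98-5p these columns therefore hold UT pools, which had its lowest levels.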

How the data were processed

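Epididymal fat of 4 diet groups was profiled by quantitative RT-PCR in 12 pools. The sources used here do not name the PCR platform, its chemistry or the threshold rule. Ct scores from before normalization, per the file headers, were the values tested. The authors also deposited normalized values, which the header describes as a ratio of 2 raised to minus delta Ct. When checked, these ratios grew with Ct, opposite to the header, so they entered only as an alternative with the sign turned. A further table of the authors' deposited fold ratios to the control group was used for description.

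The table had 507 rows, of which 1 repeated another. It held 504 microRNAs and 2 reference RNAs, with 57 missing values in 39 assays, left as missing. A filter of Ct under 35 in at least 3 pools removed 0. Relative levels (log2) were computed from the deposited Ct as defined in the results, and tested with limma 3.58.1 in R 4.3.3 by fitting the 4 groups jointly across the 12 pools (lmFit, eBayes, two-sided), each group difference taken from a refit with the other reference group. The number of pools limits the precision, and the median SE over all microRNAs was 0.43 to 0.44 cycles. The test was checked on simulated data with 200 of 504 microRNAs changed. It recovered 35.7% of 2-fold and 79.5% of 4-fold changes, with 2.8% of calls false. Smaller numbers of changed microRNAs were not simulated. Sequences and positions came from RefSeq (GRCm38.p6), tables with Python 3.11.15.

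The members, the lists of passenger strands, neighbours and markers and the tests were chosen with earlier results of these data known. All 9 members are named. Beside them, passenger strands and neighbours are given as measured, lists by counts, and the 5 microRNAs nearest in profile by root-mean-square difference. Expression of messenger RNAs was not analysed here. Alternatives changed the scaling, the missing values, the model, the position correction, the replicate block and the pools included. Those that scale to U6 also leave out UT 1 and WL 3, where U6 gave no value.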

Additional observations from a re-analysis of the deposited data

How the results depend on the processing

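The 9 members were retested under 29 alternatives in 6 comparisons, of which 12 leave out 1 pool and 2 were chosen after seeing the data (correction by neighbours in accession order, and leaving out UT 2 with WL 3). Of the 1566 member differences, 0 changed sign with both values larger than their SE. A main difference smaller than its SE could not be counted by this rule, whatever the alternative gave. Signs did change among such differences. let-7a-5p in UT minus CD, at -0.25 in the main setting, ranged from -0.40 to 0.50 over the alternatives. miR-98-5p was the only member called under any alternative. In UT minus CD it was the 1 member called with array quality weights (-1.41, limma, adjusted p = 0.0358), with the deposited ratios (-1.56, adjusted p = 0.0322), with scaling to the median microRNA (-1.58, adjusted p = 0.0415) and without UT 2 and WL 3 (-1.70, adjusted p = 0.0209). Leaving out 1 pool gave 0 to 1 members called in UT minus CD and in WL minus UT. In WL minus UT, 1 was called with array quality weights and without UT 2 and WL 3, and miR-98-5p ranged from 1.02 to 2.02 with adjusted p from 0.0131 to 0.351. In UL minus UT, 1 was called without UT 2 and WL 3, with a range from 0.97 to 1.67. In the F test, 1 was called with array quality weights and without UT 2 and WL 3. The cause was not tested. Scaling to RNU-43 gave -0.69 (adjusted p = 0.293) for miR-98-5p in UT minus CD.

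Pools with the same number did not deviate together, with r from -0.27 to 0.26 over 18 pairs, 7 of them over 0.1, and 5 of 12 pools correlated best with their own number. The replicate block gave 0 members called in every comparison, with adjusted p for miR-98-5p of 0.0973 in UT minus CD, 0.113 in WL minus UT and 0.212 in UL minus UT. Over all microRNAs, the number called ranged over the alternatives from 1 to 16 in UT minus CD, 0 to 6 in UL minus CD and in WL minus CD, 0 to 11 in UL minus UT, 0 to 1 in WL minus UL and 0 to 13 in WL minus UT. With 3 pools a group, a difference smaller than the distance from its value to either end of its interval could not be told from 0 even before adjustment.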
